A study of Mus musculus with 44 samples.

Results

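Of the 5605 regions formed when the peak lists of 2 transcription factors were joined, 881 held at least 1 IRF3 peak and no NF-kB peak, and they are described here. They were selected by presence and absence in the lists: all peaks of the 4 IRF3 lists and the 4 NF-kB lists that overlapped by at least 1 bp were joined into regions, and a region was kept when at least 1 IRF3 list and none of the NF-kB lists contributed a peak. The 881 regions hold 989 IRF3 peaks. They make up 28.6% (exact 95% interval 27.0 to 30.2%) of the 3082 regions with an IRF3 peak, and the other 2201 also held an NF-kB peak. A further 2523 regions held NF-kB peaks and no IRF3 peak. Since the lists themselves chose the regions, counts, ranks and widths that come from the lists are given as descriptions without a test.

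The lists come from chromatin immunoprecipitation with sequencing (ChIP-seq) in macrophages grown from C57BL/6 mouse bone marrow with 30 ng/ml M-CSF, a macrophage growth factor, and collected between day 8 and day 10. Cells lacked the DNA methyltransferase Dnmt3a (KO) or were wild type (WT), and they received 10 ng/ml lipopolysaccharide (LPS, a bacterial cell wall component) for 6 hours or no LPS. The IRF3 lists merge 3 samples for KO with LPS, 2 for untreated KO, 2 for WT with LPS and 3 for untreated WT, and each NF-kB list merges 3. The sources used here do not say how Dnmt3a was deleted or in which cells. The deletion cannot be checked in peak lists, and neither can the macrophage identity of the cells. Because each list merges its samples, no list has a spread between replicates, and differences between lists carry no test. The intervals given are exact Clopper-Pearson 95% intervals for counting error only, and neighbouring regions of a gene cluster are not independent of each other. The sources used here do not state read depth. Coordinates are in mm10.

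IRF3 is a latent transcription factor of the cytoplasm. Kinases downstream of Toll-like receptors and nucleic acid sensors phosphorylate it, after which it pairs, enters the nucleus and binds interferon-stimulated response elements near the interferon beta gene and other antiviral genes. NF-kB is a family of paired factors released from inhibitors of the IkB family by the same receptors. In LPS-treated macrophages both act on enhancers and promoters of inflammatory and antiviral genes, in part at the same places. A region listed for IRF3 and for no NF-kB condition is one where the lists separate them. A region that is missing from a list was not called there, which is not a measurement of zero binding.

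A table of 32851 RefSeq promoters (GRCm38.p6, the assembly also named mm10, 250 bases before to 50 bases after a gene's start) was searched for overlap. Of the 881 regions, 4 (0.454%, 0.124 to 1.16%) overlapped a promoter, against 14 of 2201 regions with both factors (0.636%) and 24 of 2523 with NF-kB alone (0.951%). The intervals of all 3 shares overlapped. The promoters belong to Gm21190 and Gm21083, predicted genes of a duplicated cluster on chromosome 5, and to Vmn1r103 and Vmn2r121, which encode vomeronasal receptors for pheromones. They are printed as the places where the set meets an annotated gene start, and they do not stand for the rest of the set. Capitals mark the bases inside the IRF3 region, and each sequence reads 5′ to 3′ on the gene's strand.
Gm21190, minus strand, chr5:15529173-15529472: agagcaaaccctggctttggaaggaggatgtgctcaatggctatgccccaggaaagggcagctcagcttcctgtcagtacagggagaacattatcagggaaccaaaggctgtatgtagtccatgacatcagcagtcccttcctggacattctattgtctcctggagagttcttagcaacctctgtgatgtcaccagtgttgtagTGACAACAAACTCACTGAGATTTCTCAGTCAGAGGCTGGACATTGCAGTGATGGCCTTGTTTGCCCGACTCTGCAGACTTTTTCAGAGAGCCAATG
Gm21083, plus strand, chr5:15577043-15577342: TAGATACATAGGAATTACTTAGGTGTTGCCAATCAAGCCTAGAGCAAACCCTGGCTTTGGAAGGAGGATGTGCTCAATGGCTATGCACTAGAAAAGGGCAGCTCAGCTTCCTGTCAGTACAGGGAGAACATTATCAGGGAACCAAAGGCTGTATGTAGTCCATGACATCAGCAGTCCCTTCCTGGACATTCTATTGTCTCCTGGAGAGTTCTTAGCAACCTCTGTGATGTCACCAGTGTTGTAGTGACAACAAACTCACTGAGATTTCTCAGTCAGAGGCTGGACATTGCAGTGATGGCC
Vmn1r103, minus strand, chr7:20510485-20510784: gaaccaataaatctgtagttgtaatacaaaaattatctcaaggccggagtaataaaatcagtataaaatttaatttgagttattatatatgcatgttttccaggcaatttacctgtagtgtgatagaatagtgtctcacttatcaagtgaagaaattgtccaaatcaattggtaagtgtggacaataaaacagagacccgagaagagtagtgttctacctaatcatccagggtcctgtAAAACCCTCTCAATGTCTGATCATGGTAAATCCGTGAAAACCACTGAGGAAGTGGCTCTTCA
Vmn2r121, minus strand, chrX:124135861-124136160: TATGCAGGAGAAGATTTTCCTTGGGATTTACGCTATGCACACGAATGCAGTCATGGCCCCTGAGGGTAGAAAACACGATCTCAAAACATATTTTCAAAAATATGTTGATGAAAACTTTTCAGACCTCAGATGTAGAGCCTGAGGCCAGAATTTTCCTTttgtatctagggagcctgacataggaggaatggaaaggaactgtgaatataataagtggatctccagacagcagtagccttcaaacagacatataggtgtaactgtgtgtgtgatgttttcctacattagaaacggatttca

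The promoters of Gm21190 and Gm21083 are near copies of each other. In their best local alignment 257 of 260 positions were identical (98.8%), whereas the other 5 pairs reached 57.0 to 60.4% over 106 to 249 positions. An IRF3 motif made of GAAA, any 2 bases and GAAA, searched on both strands, was in 0 of the 4 promoters and in 3.44% of all promoters in the table. The NF-kB motif made of GGG, any 5 bases and CC, also searched on both strands, was in 1 of the 4, that of Gm21190, and in 50.8% of all promoters. A missing match says only that these letters are not in these 300 bases. All 4 regions stood low in their lists, at rank 1732 and rank 1773 of 1792 in KO with LPS for Gm21190 and Vmn1r103, and at rank 1344 and rank 1360 of 1424 in WT with LPS for Gm21083 and Vmn2r121.

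The leading region of the set lay inside Itgb5, which encodes the integrin beta-5 subunit, a cell adhesion receptor chain that binds vitronectin together with an alpha-v chain. It spans 532 bp on chromosome 16 (33849135 to 33849666), within the gene (33829665 to 33949338) and 19470 bp from its nearer end. The gene table gives spans and no exons, so exon and intron were not separated. The region ranked 2 of 1792 by the authors' p-value in KO with LPS, 2 of 1707 in untreated KO, 2 of 1424 in WT with LPS and 3 of 1169 in untreated WT. Its q-values were 5.60e-06, 2.83e-06, 2.57e-05 and 9.81e-07 in the same order. The signal value, a score with no stated normalization, was 46.7, 69.4, 23.8 and 31.3 in that order, which placed the peak at position 2, position 1, position 19 and position 4 of its list by signal. Its peaks were narrow, at 351, 484, 322 and 408 bp. The nearest NF-kB peak of any condition was 1093515 bp away.

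Beside Itgb5, 1 other region was in all 4 IRF3 lists. It lies 4508 bp from Olfr1055, an olfactory receptor gene, and spans 234 bp on chromosome 2 (86341983 to 86342216). Its rank was 160 in KO with LPS, 307 in untreated KO, 182 in WT with LPS and 549 in untreated WT, with q-values of 0.0603, 0.183, 0.0859 and 0.393. It was therefore listed throughout, but below the Itgb5 region in each list. The nearest NF-kB peak was 610254 bp away. In contrast, 446 regions with an NF-kB peak were in all 4 IRF3 lists, so 2 of 448 such regions (0.446%, 0.0541 to 1.60%) had no NF-kB peak.

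A further 9 regions were in 3 IRF3 lists, and all 9 are named here although the count was seen first. The region 22032 bp from Ly6c2, which encodes a surface antigen of inflammatory monocytes, was absent from KO with LPS and ranked 616 in untreated KO, 121 in WT with LPS and 431 in untreated WT. Its q-values were 0.398, 0.0451 and 0.276. The region 131647 bp from Gm11232 was absent from untreated WT and ranked 1101 in KO with LPS, 1513 in untreated KO and 27 in WT with LPS, where its q-value was 0.00560. Both are narrow, at 300 and 289 bp, and in both the WT list with LPS gave the best rank. The other 7 lay inside Heph, which encodes the copper-dependent iron oxidase hephaestin, inside the predicted gene Gm42346, 4260 bp from Reg3g (an antibacterial lectin gene), 9524 bp from Mrpl40 (a mitochondrial ribosome gene), and over 100 kb from B020011L13Rik, Tsn and BC052040. Those 7 ranked between 223 and 1785 in their lists.

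**Figure D1:**
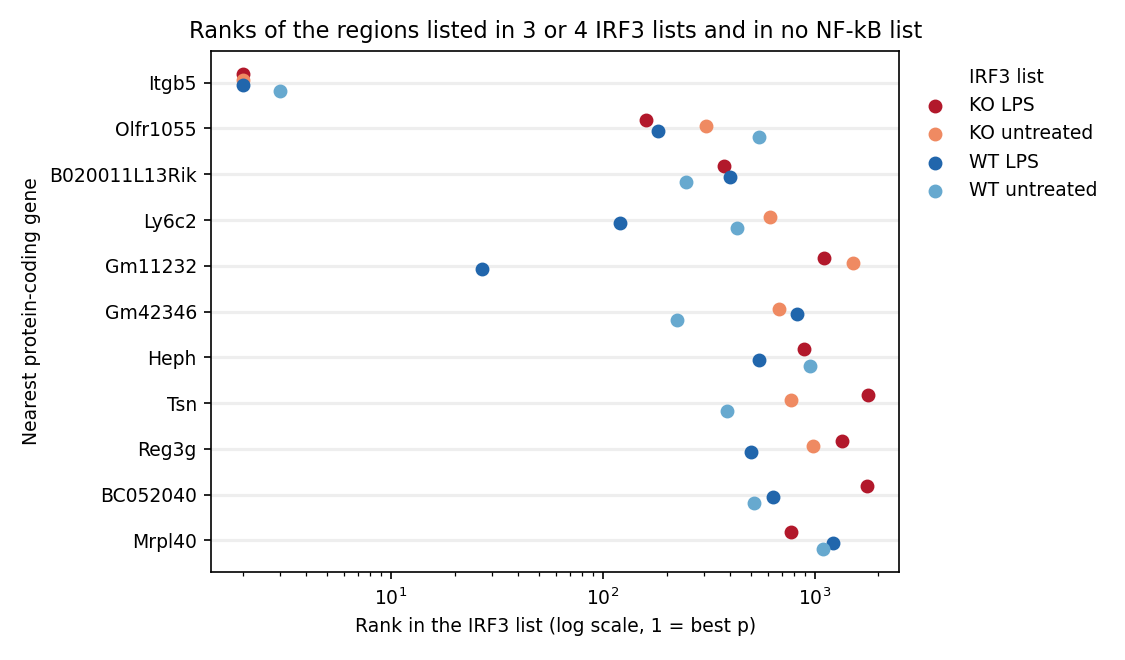
Rank of each region that was in 3 or 4 IRF3 lists and no NF-kB list, on a log axis where 1 is the best p-value of the list; points are coloured by list and rows carry the nearest protein-coding gene. Itgb5 stands at rank 2 or 3 in every list, and the next best ranks are 27 (Gm11232, WT with LPS) and 121 (Ly6c2, WT with LPS).

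Apart from these regions, most of the set came from the lower part of the lists. The median member peak stood at 76.4% of the way down the list in KO with LPS, 76.6% in untreated KO, 75.4% in WT with LPS and 76.1% in untreated WT. Peaks of regions with both factors had medians of 43.4, 46.0, 43.8 and 42.5% in that order. Among the 100 best-ranked peaks of each list, member peaks numbered 1, 1, 2 and 1. In the last 10% of the list, with the largest p-values, 40.8, 24.1, 33.1 and 47.4% of peaks were members. Peaks with a q-value under 0.05 numbered 1, 1, 3 and 2 among members and 142, 113, 139 and 182 among the other IRF3 peaks. These belong to 4 regions, at Itgb5, Ly6c2, Gm11232 and Gm9758, the last a predicted gene 6380 bp from its region.

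**Figure D2:**
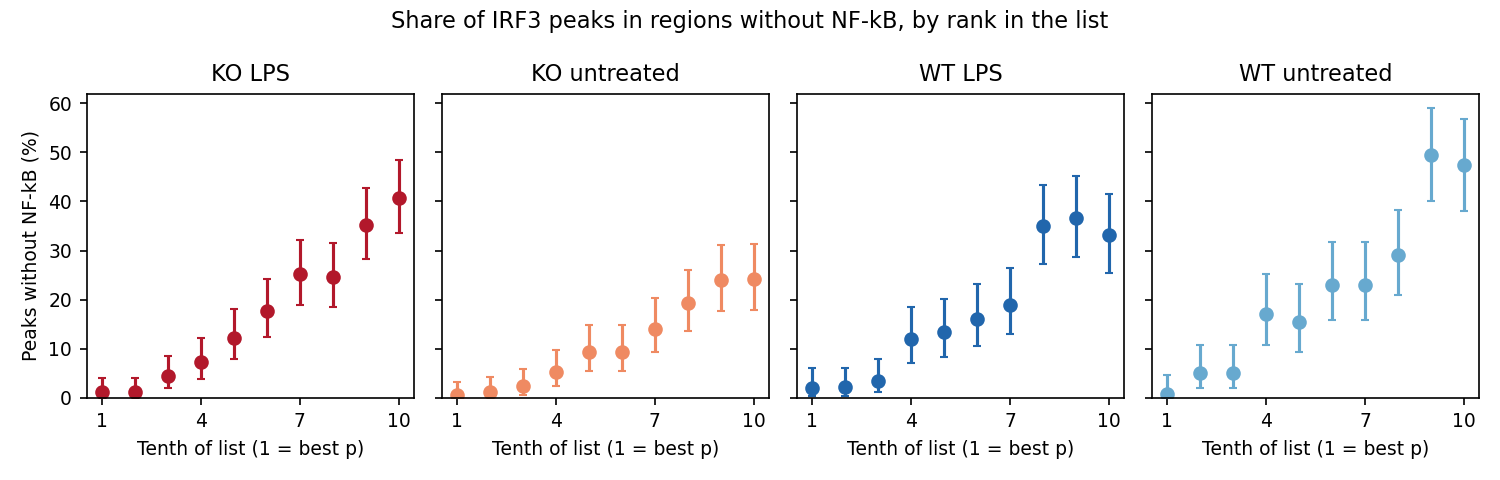
Share of IRF3 peaks in regions without any NF-kB peak (%), for each successive 10% of the list from the best p-values (1) to the largest (10), with exact 95% intervals. The share is at most 2.1% in the best 10% of each list and between 24.1 and 47.4% in the last 10%.

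Widths followed the same division. Regions of the set had a median width of 476 bp (quartiles 273 and 894), those with both factors 1626 bp (1208 and 2106) and those with NF-kB alone 437 bp (198 and 870). A wider peak has more room to meet another, so width is not independent of the rule. By list, members made up 58.6% of IRF3 peaks under 500 bp and 10.6% of wider ones in KO with LPS, 32.3 and 7.54% in untreated KO, 61.2 and 8.72% in WT with LPS, and 73.0 and 10.7% in untreated WT. Over all widths the shares were 17.0% (15.3 to 18.8%) in KO with LPS, 11% (9.51 to 12.5%) in untreated KO, 17.3% (15.3 to 19.3%) in WT with LPS and 21.6% (19.2 to 24.0%) in untreated WT. The untreated KO list had the lowest share in both width classes.

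**Figure D3:**
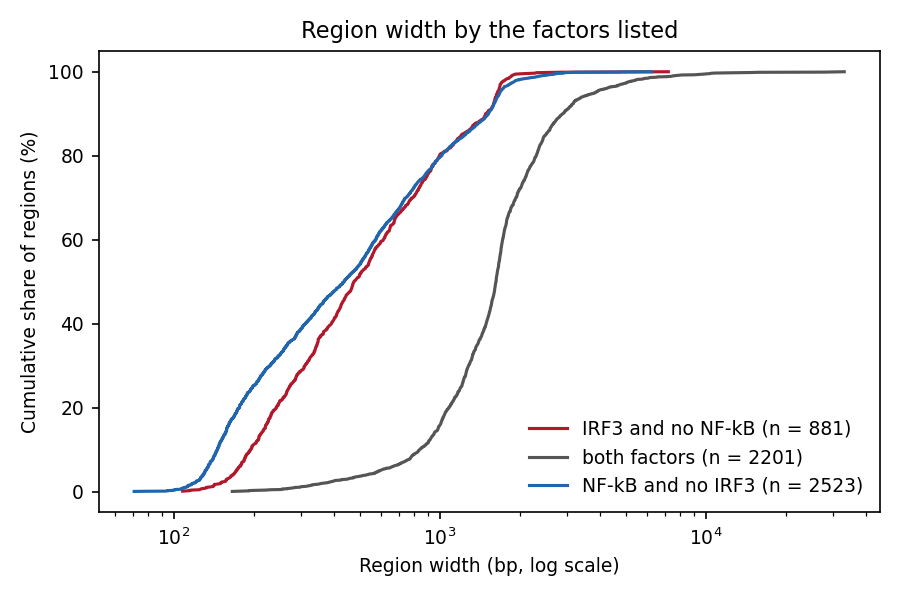
Cumulative share of regions (%) against region width in bp on a log axis, for regions with IRF3 and no NF-kB (881), both factors (2201) and NF-kB and no IRF3 (2523). The curves for IRF3 without NF-kB and NF-kB without IRF3 lie close together, with medians of 476 and 437 bp, and regions with both factors are wider, with a median of 1626 bp.

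Most of the regions were seen in 1 IRF3 list. That held for 791 of 881 (89.8%, 87.6 to 91.7%), against 854 of 2201 regions with both factors (38.8%, 36.8 to 40.9%). Among regions with NF-kB alone, 1974 of 2523 (78.2%, 76.6 to 79.8%) were in 1 NF-kB list. Both width classes gave the same order, but the shares lay closer together among narrow regions. From 500 bp upward 83.1% of the set were in 1 list, against 37.1% with both factors and 62.1% with NF-kB alone. Under 500 bp these shares were 96.0% (93.8 to 97.6%), 85.0% (75.3 to 92.0%) and 92.0% (90.4 to 93.4%). The 791 regions divide into 260 of KO with LPS, 135 of untreated KO, 191 of WT with LPS and 205 of untreated WT.

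**Figure D4:**
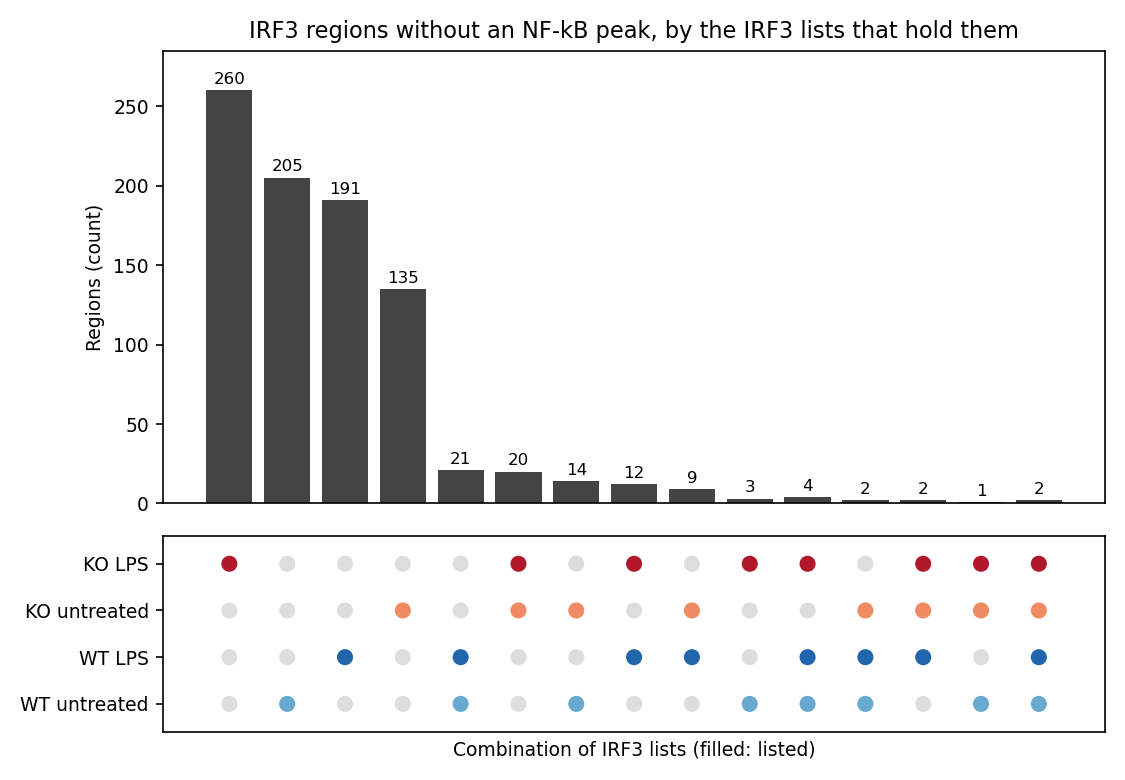
Number of regions with IRF3 and no NF-kB for each combination of the 4 IRF3 lists; filled dots under a bar name the lists that hold those regions. The combinations of 1 list hold 260 regions in KO with LPS, 135 in untreated KO, 191 in WT with LPS and 205 in untreated WT, and no combination of several lists holds more than 21.

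The first comparison within the set asked where regions were listed with LPS and not without it. In KO, 464 regions were in either list, of which 279 were in the LPS list alone (60.1%, 55.5 to 64.6%), 160 in the untreated list alone (34.5%, 30.2 to 39.0%) and 25 in both (5.39%). Over all IRF3 regions in these KO lists, 32.3% were in the LPS list alone and 26.5% in the untreated list alone. In WT, 466 regions were in either list, of which 214 were in the LPS list alone (45.9%, 41.3 to 50.6%), 223 in the untreated list alone (47.9%, 43.2 to 52.5%) and 29 in both (6.22%). Over all IRF3 regions of the WT lists, 39.2% were in the LPS list alone and 27.2% in the untreated list alone. In the set formed anew from the 1000 best-ranked peaks of each list, 49.3% of KO regions were in the LPS list alone and 41.5% in the untreated list alone. In WT these shares were 37.7 and 51.3%. All IRF3 regions were not recounted at that cut, so these shares stand without a background. Few regions of the set recur, so nothing is read from shares of 1 list above the background. The KO lists merge 3 samples with LPS and 2 without, and the WT lists 2 with LPS and 3 without, so within a genotype the number of merged samples and the treatment cannot be told apart.

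Regions in both LPS IRF3 lists and no untreated one numbered 12 of the 881, against 77 of the 2201 with both factors. By the naming rule the best-ranked were Gulp1 (an engulfment adaptor gene), Fam172a and 4930563M21Rik, each with the region inside the gene, Grhl2 (a transcription factor gene, 82161 bp away) and Nnt (a mitochondrial transhydrogenase gene, 43729 bp away). The Gulp1 region ranked 994 in KO with LPS and 512 in WT with LPS. The Nnt region lay 53 bp from an NF-kB peak, whereas the other 4 were between 24726 and 220898 bp from one. A region of this kind also lay 3792 bp from Dnmt3b, the other de novo DNA methyltransferase gene, at rank 1146 in KO with LPS (q = 0.622) and rank 1237 in WT with LPS (q = 0.902). In both untreated IRF3 lists and no LPS one there were 14 regions, against 43 with both factors. The best-ranked lay 3875 bp from Eif3e (a translation initiation factor gene), 26214 bp from Pde4b (a cyclic AMP phosphodiesterase gene), 13638 bp from Aadacl4, 33321 bp from Emc2 (an endoplasmic reticulum membrane complex gene) and 49712 bp from Gm6460. Their q-values ranged from 0.286 to 0.911. Counted over both genotypes, 463 of 881 regions were in LPS lists alone (52.6%, 49.2 to 55.9%), against 32.7% of all IRF3 regions, and 354 in untreated lists alone (40.2%, 36.9 to 43.5%), against 25.4%. The order turned in the set of 759 regions formed anew from the 1000 best-ranked peaks of each list, where 304 were in LPS lists alone and 347 in untreated lists alone. Whether it also turned over all IRF3 regions at that cut was not counted. Each count rests on its lists: without the KO or the WT list with LPS 205 or 272 regions were in LPS lists alone, and without the KO or the WT untreated list 220 or 150 were in untreated lists alone.

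The second comparison set KO beside WT. With LPS, 527 regions were in either list, of which 284 were in KO alone (53.9%, 49.5 to 58.2%), 223 in WT alone (42.3%, 38.1 to 46.7%) and 20 in both. Over all IRF3 regions with LPS, 40.6% were in KO alone and 25.2% in WT alone. Without LPS, 418 regions were in either list, of which 166 were in KO alone (39.7%, 35.0 to 44.6%), 233 in WT alone (55.7%, 50.8 to 60.6%) and 19 in both. Over all untreated IRF3 regions the order was the other way, with 45% in KO alone and 23.5% in WT alone. In the set formed anew from the 1000 best-ranked peaks of each list the order with LPS turned, with 40.8% in KO alone and 52.2% in WT alone. Without LPS the shares in that set were 31.4% in KO alone and 62.4% in WT alone. All IRF3 regions were not recounted at that cut, so whether their order with LPS also turned is not known. The KO and WT lists merge 3 and 2 samples with LPS and 2 and 3 without. Within a treatment the number of merged samples and the genotype cannot be told apart.

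In both KO IRF3 lists and no WT one there were 20 of the 881 regions, against 203 of the 2201 with both factors. The 20 were led by regions inside Arnt2 (a helix-loop-helix transcription factor gene) and Spata17 and a region 5063 bp from Vmn2r72. The Arnt2 region was 1822 bp wide and ranked 1069 in KO with LPS and 411 in untreated KO. In both WT IRF3 lists and no KO one there were 21, against 58 with both factors. Among the 21 were regions 6380 bp from Gm9758 and 11789 bp from Gm21190. The Gm9758 region ranked 317 in WT with LPS (q = 0.181) and 146 in untreated WT (q = 0.0373). Counted over both treatments, 415 of 881 regions were in KO lists alone (47.1%, 43.8 to 50.5%) and 417 in WT lists alone (47.3%, 44.0 to 50.7%), against 39.1 and 24% of all IRF3 regions. In the set of 759 regions formed anew from the 1000 best-ranked peaks of each list these counts were 258 in KO lists alone and 422 in WT lists alone. The counts over all IRF3 regions were not repeated at that cut. Without the KO list with LPS 156 regions were in KO lists alone, and without the WT list with LPS or the untreated WT list 226 or 215 were in WT lists alone.

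The regions crowded into stretches, most of which lie at clusters of duplicated genes. Windows of 1 Mb that held at least 7 members, joined where they touched, gave 8 stretches with 204 of the 881 regions (23.2%, 20.4 to 26.1%). The same stretches held 109 of 2201 regions with both factors (4.95%, 4.08 to 5.94%) and 144 of 2523 with NF-kB alone (5.71%, 4.83 to 6.69%). The stretches were chosen where members are dense, so the higher share of members is a description. Near-identical copies in such clusters can share reads, and the sources used here do not say how the authors handled reads with several matches.

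The largest stretch, on chromosome 4 (members from 145407567 to 147835350), holds 62 regions among KRAB-type zinc finger genes such as Zfp978, Zfp982, Zfp980 and Rex2. Next is a stretch of 52 on chromosome 5 (14903300 to 15809734) with Speer4c, Speer4d, Gm21190 and Gm21083, genes of a rodent family expressed in testis. Others lie on chromosome 1 (29 regions around Gm7592, Sp110 and Sp140, the Sp genes encoding nuclear body proteins) and chromosome 8 (27 regions around 9530057J20Rik beside beta-defensin genes). The smaller ones are the Pramel cluster on chromosome 5 (10), a stretch on chromosome 16 (9), the Tdpoz cluster on chromosome 3 (8) and the prolactin-like Prl2c genes on chromosome 13 (7). The protein-coding gene nearest to the chromosome 16 regions is Olfr161, 252602 to 418789 bp away, so that stretch is not placed in a gene cluster. By the nearest gene within 100 kb, 67 of 619 regions of the set (10.8%, 8.49 to 13.5%) were named by Rex2 or a gene whose symbol begins with Zfp, against 47 of 1447 with both factors (3.25%, 2.40 to 4.30%). Zinc finger genes with other symbols were not counted. Of all 21887 protein-coding genes, 1.83% have such a symbol, a share of genes and not of regions. Of the 67, 55 were inside the stretches, and outside them the share was 2.78% (1.44 to 4.80%), against 1.34% (0.794 to 2.11%) with both factors. Olfactory receptor genes named 1.29% (0.560 to 2.53%), against 2.49% (1.75 to 3.43%) with both factors, with overlapping intervals. They make up 5.07% of all genes, again a share of genes and not of regions.

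The stretches did not fill alike in KO and WT. In the Speer4 stretch, member regions numbered 2 in KO with LPS, 1 in untreated KO, 28 in WT with LPS and 30 in untreated WT. Counting every IRF3 region there, with or without NF-kB, gave 5, 5, 49 and 54 in the same order. The NF-kB lists held 24, 33, 35 and 13 regions in that stretch in that order. So the IRF3 lists of WT exceeded those of KO under both treatments, whereas the NF-kB lists did so with LPS and not without. The zinc finger stretch gave 11, 6, 24 and 28 member regions in the order KO with LPS, untreated KO, WT with LPS and untreated WT, and 33, 25, 42 and 46 IRF3 regions in all. The Tdpoz stretch went the other way, with 5 member regions in each KO list and 0 in each WT list, and its NF-kB lists held 0 regions in KO and 1 and 0 in WT.

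Over all 8 stretches, 30 of 304 members of the KO LPS list (9.87%, 6.76 to 13.8%) and 24 of 185 of the untreated KO list (13%, 8.49 to 18.7%) lay inside. The WT lists had 81 of 243 members there with LPS (33.3%, 27.4 to 39.6%) and 90 of 252 members without LPS (35.7%, 29.8 to 42.0%). In the set formed anew from the 1000 best-ranked peaks of each list, 12 of 197 members lay inside in KO with LPS (6.09%). The untreated KO list had 13 of 171 (7.60%), WT with LPS 49 of 244 (20.1%) and untreated WT 81 of 312 (26.0%). In that set each WT list held more members than each KO list outside the stretches as well as inside. With the full lists, 47 of the 204 regions inside were in KO lists alone and 153 in WT lists alone. Of the 677 outside, 368 were in KO lists alone (54.4%) and 264 in WT lists alone (39.0%). The near-equal counts of the whole set thus combine opposite orders, in lists of unequal length. The full IRF3 lists hold 1792 and 1707 peaks in KO and 1424 and 1169 in WT. Regions with both factors had the same orders in the full lists. Inside, 22.9% of them were in KO lists alone and 42.2% in WT lists alone, and outside 36.6 and 13.3%. Of all IRF3 regions, with or without NF-kB, 4.71% lay inside in KO with LPS, 4.67% in untreated KO, 10.5% in WT with LPS and 13.2% in untreated WT. The share of all NF-kB regions inside the stretches differed less, at 4.30% in KO with LPS, 4.10% in untreated KO, 4.66% in WT with LPS and 3.93% in untreated WT. The stretches were chosen from members of all 4 lists together, so lists with many members there also shaped the choice.

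**Figure D5:**
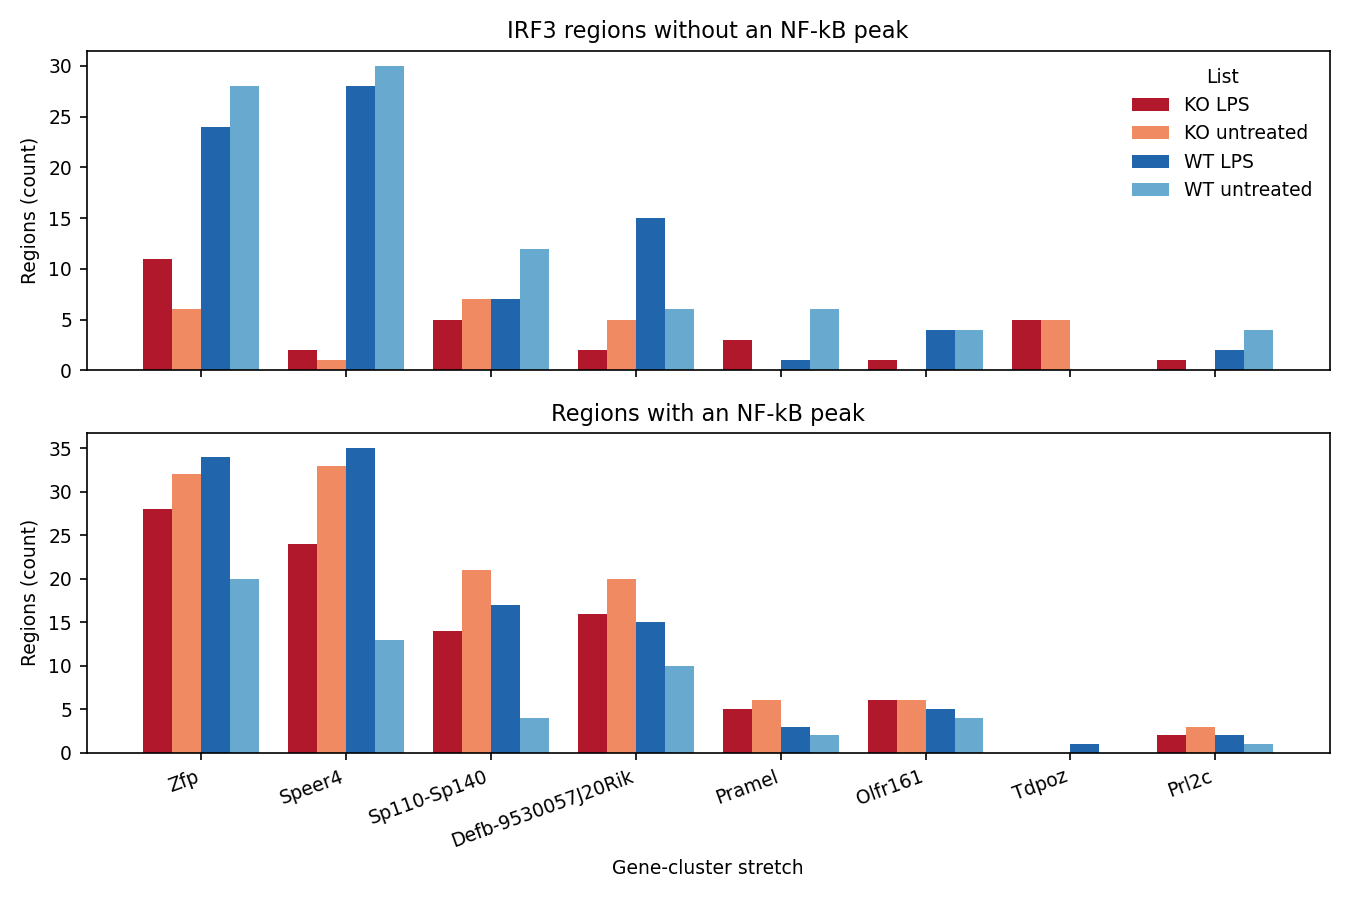
Upper panel, number of IRF3 regions without NF-kB in each of 8 stretches by IRF3 list, and lower panel, number of regions with an NF-kB peak in the same stretches by NF-kB list. The Olfr161 stretch carries the name of its nearest gene, which is over 100 kb away. In the Speer4 stretch the IRF3 counts are 2 and 1 in KO and 28 and 30 in WT, while the NF-kB counts are 24 and 33 in KO and 35 and 13 in WT.

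Genes of long noncoding RNAs were overlapped by 6.81% of the set (5.24 to 8.68%), against 6.54% with both factors and 7.57% with NF-kB alone. Regions at 2 noncoding loci are named here, chosen after their values were seen. Neat1, on chromosome 19 (5824708 to 5845480), encodes the architectural RNA of paraspeckles and held 3 of the regions. The peak of KO with LPS (5839584 to 5840021) had a signal value of 12.2 and rank 705, and that of WT with LPS (5836803 to 5837148) had signal 15.4 and rank 346. That of untreated WT (5837154 to 5837722) lay beside the last and had the highest signal value of its list, 47.0, at rank 214 by p-value (q = 0.0732). Neat1 is not free of NF-kB: a region of both factors and a region of NF-kB alone lay in the same gene, and the 3 members were 654 to 3435 bp from the nearest NF-kB peak. At the 5S ribosomal RNA cluster of chromosome 8, 3 member regions covered 7 of its 48 annotated rRNA genes, 1 of the regions in KO with LPS and 2 in untreated KO. Regions with both factors covered 8 rRNA genes and those with NF-kB alone 3. The widest of these member regions, 7228 bp, ranked 1126 in untreated KO.

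Position against genes was not used by the rule, although width, which differs between the classes, bears on it. Of the 881 regions, 246 overlapped a protein-coding gene span (27.9%, 25 to 31.0%), against 28.9% (27.0 to 30.8%) with both factors and 31.1% (29.3 to 33.0%) with NF-kB alone, so the intervals overlapped. Within 1 kb of a gene end lay 37 regions (4.20%, 2.97 to 5.74%), against 1.86% (1.34 to 2.52%) with both factors, but within width classes the intervals overlapped. Under 500 bp the shares were 4.84% (3.05 to 7.23%) in the set and 1.25% (0.0316 to 6.77%) with both factors, and from 500 bp upward 3.52% (1.98 to 5.74%) and 1.89% (1.35 to 2.56%). The share with NF-kB alone was 2.34% (1.78 to 3.01%), whose interval overlaps that of the set. Of the 37, 17 were in the 8 stretches, and outside them the share was 2.95% (1.81 to 4.53%), against 1.43% (0.970 to 2.04%) with both factors and 2.19% (1.64 to 2.86%) with NF-kB alone. Annotated pseudogenes were overlapped by 6.81% of the set (5.24 to 8.68%), against 2.77% (2.13 to 3.55%) and 3.13% (2.49 to 3.89%) of the other classes. Outside the stretches the pseudogene shares were 3.10, 1.96 and 2.27% with overlapping intervals.

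Regions that reached an annotated gene end numbered 7, those of Tdpoz3, Gm21149, Gm21083, Zfp706 and Vmn1r103 and 2 regions at Gm21190; the naming rule took 6, and the tied Vmn1r103 is added. Zfp706, a small zinc finger gene outside the stretches, had a region of 1484 bp on chromosome 15 (36995776 to 36997259) in WT with LPS at rank 516 (q = 0.358). The Tdpoz3 region, 2064 bp wide, was in untreated KO at rank 561 with a signal value of 30.4, position 11 of its list by signal. Ubb, a ubiquitin gene that is active in most cells, had a region inside it, 299 bp from an end, in KO with LPS, at rank 1265. It was chosen after its values were seen, as were the regions of the nuclear body genes Sp110 and Sp140. Of 5 regions inside these Sp genes, 1 was in KO with LPS, 1 in WT with LPS and 3 in untreated WT, and all were at rank 671 or lower.

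Named by rank in each list, and leaving out Itgb5 and Olfr1055 described above, the regions of KO with LPS lay near Zfp980 and Zfp978 and inside Dync2h1, a motor gene of cilia (rank 310). Those of untreated KO lay 19553 bp from Actg1, the cytoplasmic gamma-actin gene (rank 182, q = 0.102), inside Arnt2 and near Aadacl4. WT with LPS added the region near Ly6c2 and a region 4403 bp from H60c, a ligand gene of a natural killer cell receptor (rank 246, q = 0.129). Untreated WT added regions near Gm9758 and Speer4c, the Neat1 region, whose nearest protein-coding gene is Frmd8, and a region inside Tbc1d5, a Rab GTPase regulator gene (rank 205, q = 0.0621). Genes are named by proximity, and no effect of a region on its gene was measured.

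Genes of the IRF3 pathway and its targets were looked for near the regions in lists of known members. Within 10 kb of a region of the set lay 0 of 48 matched interferon-stimulated genes such as Ifit1, Isg15 and Cxcl10 (0 to 7.40%), 0 of 29 genes of the pathway to and from IRF3 such as Tlr4, Ticam1, Tbk1 and Ifnb1 (0 to 11.9%), and 0 of 40 NF-kB targets and feedback genes (0 to 8.81%). Over all protein-coding genes 275 of 21887 (1.26%) had such a region, so counts of 0 in lists of this size say little. Macrophage identity genes (0 of 30), antigen presentation genes (0 of 15) and cell cycle and p53 genes (0 of 20) had none either. Of 18 DNA methylation genes Dnmt3b had one. Markers of T cells (0 of 4), B cells (0 of 3), neutrophils (0 of 4), dendritic cells (0 of 4) and erythroid cells (0 of 3) had none, and of 3 stromal markers Kitl, which encodes stem cell factor, had one 9292 bp away in KO with LPS at rank 1673 (q = 0.903). Within 50 kb, where 2.82% of all genes had a region, Sp100 of the interferon-stimulated list was added, and Sp110 and Sp140, described above, are outside these lists. Regions with both factors lay within 10 kb of Nmi, Optn, Fcgr1 and Cdkn1a among these lists.

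By chromosome, the set was most frequent among IRF3 regions on chromosome 19 (23 regions, 45.1%), chromosome 5 (110 regions, 40.6%) and chromosome 8 (57 regions, 37.7%). It was least frequent on chromosome 17 (12 regions, 14.3%) and chromosome 18 (14 regions, 15.1%), against 28.6% over all chromosomes. The stretches, chosen where members are dense, hold 52 and 10 of the chromosome 5 regions and 27 of the chromosome 8 regions. High shares there are therefore not read as traits of these chromosomes. The X chromosome held 61 of the 881 regions (6.92%, 5.34 to 8.81%), against 10.3% (9.07 to 11.7%) with both factors and 10.2% (9.07 to 11.5%) with NF-kB alone. None of the 8 stretches is on this chromosome, and outside them the X share was 9.01% (6.96 to 11.4%), against 10.9% (9.55 to 12.3%) and 10.8% (9.62 to 12.2%), with overlapping intervals.

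The line between inside and outside the set was 1 bp of overlap, and 65 regions (7.38%) had an NF-kB peak within 1 kb and 211 (24.0%) within 10 kb. The median distance was 84828 bp, and 406 regions (46.1%) were over 100 kb from any NF-kB peak. Just inside, the regions at Exoc6b, Rbm24, Setd4 and Hs6st3 were 1, 2, 4 and 5 bp from an NF-kB peak, where 1 means that the peaks adjoin. Just outside, the smallest overlaps between an IRF3 and an NF-kB peak were 1, 45, 46 and 62 bp, near Ubxn2b, Scg2, Gm17019 and Htr7. Membership also depends on single NF-kB lists: of the 2201 regions with both factors, 546 had their NF-kB peaks in 1 list. That list was KO with LPS for 103, untreated KO for 255, WT with LPS for 139 and untreated WT for 49.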

How the data were processed

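The data are 8 peak lists, 1 per factor, genotype and treatment, from 10 IRF3 and 12 NF-kB ChIP-seq samples; 4 input, 8 ATAC-seq and 10 bisulfite samples were not analysed here. Per the labels, the replicates of a group share a list, and nothing says they came from separate animals. Per the submitters' processing notes, the build is mm10 and the tools include MACS2 2.1.1, HOMER 4.9, Picard 2.8.0 and deepTools 3.5.0, without roles. Each deposited peak carries a score and a signal value, used as a score, and a deposited p-value and q-value, all the authors' own. The aligner and peak-calling settings: not given in the sources used here. Deposited lists reach q-values of 0.893 to 0.912. Peaks were ranked by p-value, then signal, width and position. Regions were joined and placed against 21887 protein-coding genes of RefSeq GRCm38.p6 with Python 3.11.15, pandas 2.3.3, SciPy 1.17.1 and Biopython 1.88. The joining and placement were tested on simulated data. Members, gene lists (214 of 219 symbols matched) and naming rules were chosen with earlier results of these data known. The rule named regions in all 4 lists, the 5 best per list with a gene within 100 kb, the 5 best of each treatment, the 3 best of each genotype, list genes within 10 kb, and the 6 regions nearest a gene end; 1 region so named is not reported here.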

Additional observations from a re-analysis of the deposited data

How the results depend on the processing

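No paired analysis was possible because each list merges its replicates, and for the same reason no replicate could be left out. Of 154 recomputed values, 99 stayed within 1.5 times the reported count or within the interval of the reported share or median, and the cause of the other 55 moves was not tested unless the setting itself removes peaks. Keeping IRF3 peaks with a q-value under 0.05 left 4 regions (1.36% of IRF3 regions, 75% in 1 list, 2 in LPS lists alone, 1 in untreated lists alone, 0 in KO lists alone, 3 in WT lists alone, median width 367 bp, 0% within 1 kb of a gene end, 0 list genes). Cutting every IRF3 and NF-kB list to its 1000 best-ranked peaks formed a set of 759 regions. Its share of IRF3 regions was 38.9%, with 82.3% in 1 list, 304 in LPS lists alone and 347 in untreated lists alone, which turns their order, 258 in KO lists alone and 422 in WT lists alone, a median width of 941 bp and 1 list gene. The pairwise comparisons and the stretch shares were recomputed with these peaks after seeing the data, for the set and not for all IRF3 regions. With peaks of at least 500 bp there were 512 regions (20.6%), 85.5% in 1 list, 261 in LPS lists alone, 197 in untreated lists alone, 265 in KO lists alone and 208 in WT lists alone, with a median width of 897.5 bp. Requiring an NF-kB peak to cover at least 50% of an IRF3 peak gave 32.3% and a median width of 539 bp, and counting NF-kB peaks within 1000 bp as shared gave 26.5%. Leaving out each list in turn gave 24.6 to 37.0% of IRF3 regions, 86.5 to 93.7% in 1 list, 205 to 567 in LPS lists alone, 150 to 459 in untreated lists alone, 156 to 587 in KO lists alone, 215 to 477 in WT lists alone and median widths of 453.5 to 577 bp; the lowest counts follow from removing an IRF3 list that holds those regions, and the highest share (37.0%) from removing the NF-kB list of untreated KO. Without the 8 stretches, a setting chosen after seeing the data, the share was 24.4%, with 264 in WT lists alone, a median width of 547 bp, 24.4% in gene spans and 2.95% within 1 kb of a gene end. The planned window around peak centres was not run, since no genome sequence was used here. Depth is unknown, so an absent peak may be a missed one.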
